A study of Mus musculus with 21 samples.

Results

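Growth factor signalling and the secreted proteinases that act on it were followed through 6 genes in sorted mouse dendritic cells (DCs): the ligands Mdk and Wnt11, the receptor Fgfr3 and the secreted metalloproteinases Pappa2, Bmp1 and Adamts9. They were taken by name from the 55471 genes of the count table. The genes had been picked with earlier results of these data in view, where the measured values differed between sorts and tissues. Such differences of the 6 genes are therefore given as a description with no test, and for these genes only the comparisons of genotype were tested. Other genes of their pathways, in lists that were also drawn up with earlier results known, were tested between sorts as well. Because the lists were drawn up that way, the shares of their genes called are set beside those of all genes as a description only.

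RNA was sequenced from DCs of C57BL/6 mice aged 6 weeks that carry a reporter knock-in for Aire, a transcriptional regulator best known from the thymic medulla. The 21 libraries fall into 7 groups of 3 independent biological replicates. Every group carried 1 copy of the AGF-KI reporter allele, opposite a wild-type allele in AGF-KI/+ mice (KI/+) or opposite an allele written as - in AGF-KI/- mice, which the labels call AireKO. Lymph node cells positive for CD45, CD11c and MHCII were sorted into reporter-positive (AGF+) and reporter-negative (AGF−) cells, in KI/+ and in AireKO mice, which gave 4 groups. Bone marrow gave AGF+ cells of KI/+ and of AireKO mice, sorted as B220−CD24+ cells with little or no CD11b. The seventh group was a B220−CD11c+MHCII+ marrow population of KI/+ mice, called total DC in the titles and AGF− in the design text. The marrow AGF+ cells and total DCs thus differ by gate as well as by reporter. AGF+ cells of lymph node and marrow were also sorted through different gates. In the tissue differences given below, tissue and gate therefore cannot be told apart. The sources used here do not say how the reporter allele is built or how many mice made up a replicate.

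Midkine, the product of Mdk, is a heparin-binding growth factor that is abundant in the embryo and is sensed through low-density lipoprotein receptor-related proteins, syndecans and a receptor phosphatase. WNT11 is a secreted lipid-modified ligand that signals mainly through the branch that sets cell polarity and movement, and FGFR3 is a receptor tyrosine kinase for fibroblast growth factors that restrains the growth of cartilage. The proteinases work on the supply of such signals outside the cell. Pappalysin, encoded by Pappa2, cuts binding proteins of insulin-like growth factor (IGF) and sets that factor free, BMP1 trims procollagens and removes the antagonist chordin from bone morphogenetic proteins (BMPs), and ADAMTS9 cuts the proteoglycans aggrecan and versican. All are known chiefly from skeleton, connective tissue and development, and DCs are not their usual context.

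Libraries held 4164451 to 6055097 counts. Levels are CPM, counts scaled to a common depth over library sizes scaled by the TMM method, and 3 counts in a library, the limit that a count of 0 allows, corresponded to 0.456 to 0.764 CPM. Such floors, and the counting intervals below, cover counting error only. DC markers were present in every group, with 8 of 8 markers counted. Aire fell with genotype as labelled, from 114 to 25.2 CPM in lymph node AGF+ cells and from 101 to 14.5 CPM in marrow AGF+ cells. In lymph node AGF− cells Aire stood at 14.3 ± 0.487 CPM in KI/+ and 12.6 ± 1.93 CPM in AireKO mice and was not called (-0.19 ± 0.16 on the log2 scale, adjusted p = 0.883, edgeR quasi-likelihood test), so it does not check the genotype labels of those libraries. All mice are male by their labels. The 7 libraries numbered 2 (1 per group) nevertheless held 2021 to 3993.5 CPM of the X-inactivation transcript Xist and at most 0.766 CPM over 4 Y-linked genes. The other 14 libraries held at most 31.1 CPM of Xist and 329 to 566 CPM of the Y-linked genes. Values without the libraries numbered 2 are given for Mdk, Adamts9, the Wnt11 difference between genotypes and the pathway lists.

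Of the 6 genes, 5 lay highest in lymph node AGF+ cells, and Adamts9 was counted almost only in bone marrow. On GRCm38, Mdk spans chr2:91929805-91932297 on the minus strand, Pappa2 chr1:158711727-158980490 (minus), Bmp1 chr14:70474558-70520234 (minus), Fgfr3 chr5:33721674-33737068 (plus), Wnt11 chr7:98835112-98855195 (plus) and Adamts9 chr6:92772699-92943492 (minus). Each value counts reads over the exons of the whole gene. RefSeq promoter windows on GRCm38.p6 were found for 4 of the 6 genes, namely Pappa2, Fgfr3, Wnt11 and Adamts9. Wnt11 has 2 annotated starts. The stretches of 250 bases before the first of these and before the start of Adamts9 are shown because these 2 genes had opposite tissue patterns. Adamts9 differed in this way from Mdk, Pappa2, Bmp1 and Fgfr3 as well. Neither stretch holds an annotated exon. Capitals mark matches, on either strand, to a TATA box (TATAAA) or a GC box (GGGCGG):
Wnt11 (chr7:98834862-98835111, plus strand): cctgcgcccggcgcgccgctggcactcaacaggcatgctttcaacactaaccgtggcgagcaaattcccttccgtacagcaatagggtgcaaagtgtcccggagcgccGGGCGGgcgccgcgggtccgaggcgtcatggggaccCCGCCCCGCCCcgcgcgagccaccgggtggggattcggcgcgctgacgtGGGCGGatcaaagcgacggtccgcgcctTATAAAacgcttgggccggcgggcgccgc
Adamts9 (chr6:92943535-92943784, minus strand): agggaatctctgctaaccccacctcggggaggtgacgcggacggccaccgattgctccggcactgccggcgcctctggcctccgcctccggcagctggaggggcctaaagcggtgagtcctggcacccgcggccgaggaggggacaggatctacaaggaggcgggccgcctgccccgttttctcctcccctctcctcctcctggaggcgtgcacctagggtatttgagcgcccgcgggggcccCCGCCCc
The Wnt11 stretch holds a TATA box that begins at position -29 from the start site and 4 GC boxes, a pair of which overlap by 1 base. The stretch before the second Wnt11 start (chr7:98838595-98838844), with 56.8% G and C, holds neither, and has 1 match to GAGGAA, a core of PU.1-type sites, at -192. Adamts9 has 1 GC box, at -7, and no match to TATAAA. Among 32851 promoter windows of the same length, 12.4% hold TATAAA and 32.7% GGGCGG. Both stretches are rich in G and C, at 70.8% for Wnt11 and 71.2% for Adamts9 against a median of 52.4% over all windows. CpG pairs stood at 1.18 and 0.697 times the number that base composition gives, with a median of 0.373 over all windows. The Pappa2 window lies inside the gene and overlaps an annotated Pappa2 exon, so it belongs to an internal start. It had 49.2% G and C and a CpG ratio of 0.134. The stretches before the 2 annotated starts of Fgfr3 had 66.8% and 72.8% G and C. Searches for GAGGAA (PU.1-type), AGGTCA (nuclear receptor half-site), TGTGGT (RUNX) and TGANTCA (AP-1) found no match in the 2 printed stretches. These letters are in 23.3%, 14%, 14% and 6.75% of all windows. Such matches describe the sequence and say nothing of binding.

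Mdk, the heparin-binding ligand, was counted mainly in the AGF+ sorts. KI/+ mice had 20.7, 12.6 and 12.7 CPM in AGF+ cells of the lymph node (mean 15.3 ± 4.63, SD, n = 3), and AireKO mice had 9.86, 7.83 and 18.2 CPM there (12 ± 5.51). In marrow the AGF+ libraries of KI/+ mice held 4.08, 5.55 and 4.10 CPM, and those of AireKO mice 3.57, 4.06 and 4.84 CPM. Every AGF+ library of either tissue lay above all libraries of AGF− cells and total DCs. The latter were at the floor of counting, with 1 to 3 counts in each lymph node AGF− library of KI/+ mice, 2 to 6 in those of AireKO mice and 1 to 3 in each library of total DCs. On the log2 scale Mdk was 5.11 ± 0.68 (SE) higher in AGF+ than AGF− lymph node cells of KI/+ mice, or 5.59 without the libraries numbered 2, and 4.09 ± 0.54 higher in AireKO mice. In marrow the difference from total DCs was 3.21 ± 0.48, or 2.73 without the libraries numbered 2. The sizes of these Mdk differences rest on 6, 11 and 7 counts in the lower groups. In KI/+ mice the AGF+ cells of lymph node held 3.34-fold more Mdk than those of marrow.

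The other ligand, Wnt11, was highest in lymph node AGF+ cells and was also counted in AGF− cells of the node. Lymph node AGF+ cells had 56.1, 45.2 and 52.8 CPM in KI/+ mice (51.4 ± 5.64) and 43.1, 46.2 and 47.3 CPM in AireKO mice (45.5 ± 2.16). AGF− cells of the same nodes were not devoid of it, at 37.3, 31.1 and 27.7 CPM in KI/+ mice (32.0 ± 4.86), so that the sorts differed by only 0.68 ± 0.21 on the log2 scale, a 1.60-fold difference. In AireKO mice, where AGF− cells had 11, 24.0 and 14.2 CPM (16.4 ± 6.78), the difference between sorts was 1.46 ± 0.22. In both genotypes the AGF+ libraries lay above the AGF− libraries. Marrow AGF+ cells of KI/+ mice, at 16.1, 11.7 and 7.13 CPM, overlapped total DCs at 9.59, 2.05 and 1.16 CPM. The fitted marrow difference of 1.47 ± 0.56 turned to 2.85 without replicate 1 of the total DCs, the library at 9.59 CPM. Between tissues Wnt11 was 4.43-fold higher in lymph node than in marrow AGF+ cells of KI/+ mice, a log2 difference of 2.15 ± 0.37, with no overlap of libraries.

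Fgfr3, the receptor, marked AGF+ cells of both tissues with a small difference between them. It stood at 70.2, 51.2 and 50.7 CPM in lymph node AGF+ cells of KI/+ mice (57.4 ± 11.1), at 45.0, 53.0 and 67.4 CPM in AireKO mice (55.1 ± 11.4), and at 43.4, 40.4 and 42.1 CPM in marrow AGF+ cells of KI/+ mice (42.0 ± 1.53). The AireKO libraries of marrow AGF+ cells held 38.9, 43.8 and 38.5 CPM. Lymph node AGF− cells held 5.92 to 6.86 CPM in KI/+ and 3.55 to 6.02 CPM in AireKO mice, and total DCs 2.25 to 2.56 CPM. No AGF+ library came near these. The log2 difference between sorts was 3.14 ± 0.22 in KI/+ and 3.41 ± 0.23 in AireKO lymph node, and 4.14 ± 0.18 in marrow. The tissue difference in KI/+ AGF+ cells was smaller, 0.45 ± 0.16, and came to 0.26 without lymph node AGF+ KI/+ replicate 1. Of the exon bases of Fgfr3, 13.9% are shared with the transcript G630022F23Rik on the other strand, which drew 55 counts over all libraries against 3310 for Fgfr3.

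Bmp1, the tolloid proteinase, was high in AGF+ cells of both tissues. KI/+ nodes gave AGF+ libraries of 207, 169 and 190 CPM (189 ± 19.4), and AireKO nodes gave 205, 184 and 199 CPM (196 ± 10.9). The AGF+ libraries of marrow followed, with 117, 109 and 112 CPM from KI/+ mice (113 ± 4.34) and 104, 97.2 and 116 CPM from AireKO mice (106 ± 9.31). It was low but plainly counted elsewhere, with 25.4 to 40.6 CPM in AGF− cells of KI/+ nodes, 20.7 to 29.7 CPM in those of AireKO nodes and 5.79 to 12.4 CPM in total DCs. AGF+ exceeded AGF− lymph node cells by 2.47 ± 0.17 on the log2 scale in KI/+ and by 2.92 ± 0.17 in AireKO mice. In marrow the difference was 3.74 ± 0.21, a 13.4-fold difference from total DCs. Bmp1 was 1.67-fold higher in lymph node than in marrow AGF+ cells of KI/+ mice.

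Pappa2, the IGF-binding-protein proteinase, was higher in AGF+ cells of lymph node than of marrow. KI/+ nodes gave AGF+ libraries of 50.1, 39.4 and 67.0 CPM (52.2 ± 13.9), and AireKO nodes gave 32.4, 39.3 and 54.7 CPM (42.2 ± 11.4). The marrow AGF+ libraries held 11.8, 7.66 and 7.67 CPM in KI/+ mice (9.05 ± 2.41), and in AireKO mice 12, 9.19 and 16.8 CPM (12.7 ± 3.86). Lymph node AGF− cells had 3.03 to 4.02 CPM in KI/+ and 0.747 to 5.44 CPM in AireKO mice. Total DCs had 2, 0 and 1 counts. Against these 3 counts the 141 counts of marrow AGF+ cells gave a ratio of 44.1 (95% counting interval 14.8 to 216). In lymph node the sorts differed by 3.84 ± 0.41 on the log2 scale in KI/+ and by 3.85 ± 0.42 in AireKO mice. The latter value came to 4.59 without AGF− AireKO replicate 3 and to 3.4 without replicate 1 of that group. Between tissues the AGF+ cells of KI/+ mice differed 5.76-fold in Pappa2, with lymph node higher.

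Adamts9, the proteoglycan-cutting proteinase, was higher in marrow than in lymph node, opposite to Wnt11 and to the rest of the set. The AGF+ libraries of KI/+ marrow held 74.9, 83.8 and 72.6 CPM (77.1 ± 5.96), and those of AireKO marrow 83.8, 86.8 and 111 CPM (93.7 ± 14.7). Total DCs were lower but far from empty, at 31.3, 45.3 and 37.6 CPM (38.1 ± 6.98). The marrow sorts differed 2.04-fold, by 1.03 ± 0.16 on the log2 scale, and did not overlap. In the 12 lymph node libraries Adamts9 drew 0 to 5 counts each, under the filter on low counts in the lymph node fit, so no sort difference was fitted there. The AGF+ and AGF− libraries of KI/+ nodes held 7 and 2 counts, a ratio of 2.84 with a counting interval of 0.541 to 28.0, and those of AireKO nodes 3 and 3 counts. Marrow AGF+ cells held 1212 counts against the 7 of lymph node AGF+ cells in KI/+ mice, a ratio of 193 (95% counting interval 93.2 to 480). The fitted tissue difference for Adamts9, -7.51 ± 0.56 (log2, lymph node against marrow), came to -6.91 without lymph node AGF+ KI/+ replicate 1, to -8.54 without replicate 2 of that group and to -8.49 without the libraries numbered 2. Exons of the other strand, of A730049H05Rik and Gm15737, cover 9.18% and 2.82% of the exon bases of Adamts9. These genes drew 217 and 226 counts over all libraries and Adamts9 drew 3076.

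**Figure D1:**
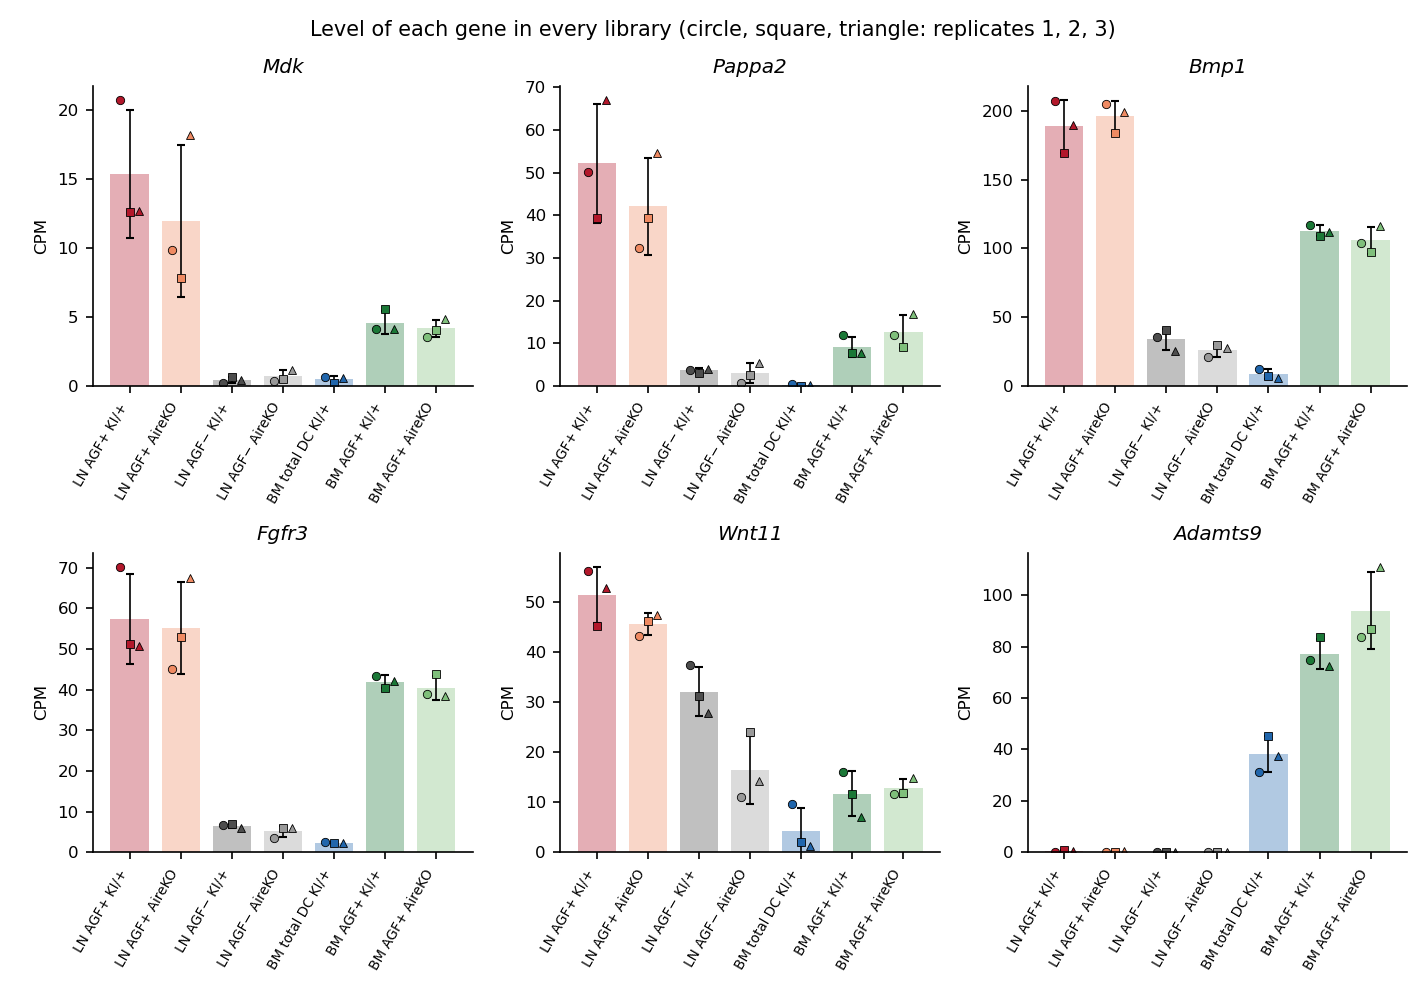
Level of each gene in CPM (linear axis from 0, 1 panel per gene) in the 7 groups, with bars for group means, whiskers for SD over 3 libraries (clipped at 0) and points for single libraries. In the panels of Mdk, Pappa2, Bmp1 and Fgfr3 all AGF+ libraries stand above all other libraries, whereas the lymph node AGF− libraries of Wnt11 reach 37.3 CPM in KI/+ mice and 24.0 CPM in AireKO mice, and Adamts9 is counted in marrow.

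Over all 7 groups, Mdk, Pappa2, Bmp1 and Fgfr3 gave 1 order of blocks: lymph node AGF+ above marrow AGF+, and both above the remaining groups. Within each block of AGF+ cells the KI/+ and AireKO groups overlapped for all 4 genes. Between the blocks their libraries did not overlap. Among the lower groups, Pappa2, Bmp1 and Fgfr3 parted lymph node AGF− cells from total DCs without overlap and Mdk did not. For Pappa2 the nearest libraries were at the floor of counting. They held 4 counts in AGF− AireKO replicate 1 and 2 counts in total DC replicate 1. For Wnt11 the order ran from lymph node AGF+ KI/+ and AireKO, which overlapped, to AGF− KI/+ and then AGF− AireKO cells, each apart from the one above. Below these, the AGF− AireKO libraries and the 3 marrow groups overlapped each with the next. For Adamts9 both marrow AGF+ groups overlapped and lay above total DCs, which lay above the lymph node groups.

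In the sort comparisons of lymph node, the AGF+ libraries lay above the AGF− libraries in both genotypes for 5 of the 6 genes. Adamts9, which did not pass the filter there, overlapped in both genotypes. Mdk passed through its AGF+ libraries, with 272 counts in KI/+ and 187 in AireKO nodes against 6 and 11 in AGF− cells. In marrow all 6 passed and the AGF+ libraries lay above total DCs for 5, with the overlap in Wnt11. Among all genes tested, 10.1% were called higher in AGF+ cells of KI/+ nodes (edgeR quasi-likelihood test, adjusted p under 0.05), 11.4% in those of AireKO nodes and 22.8% in marrow AGF+ cells. A call is a different measure from libraries that do not overlap, and the share of all genes with such libraries was not counted. The 6 genes were picked on differences between sorts, so these counts describe them only.

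**Figure D2:**
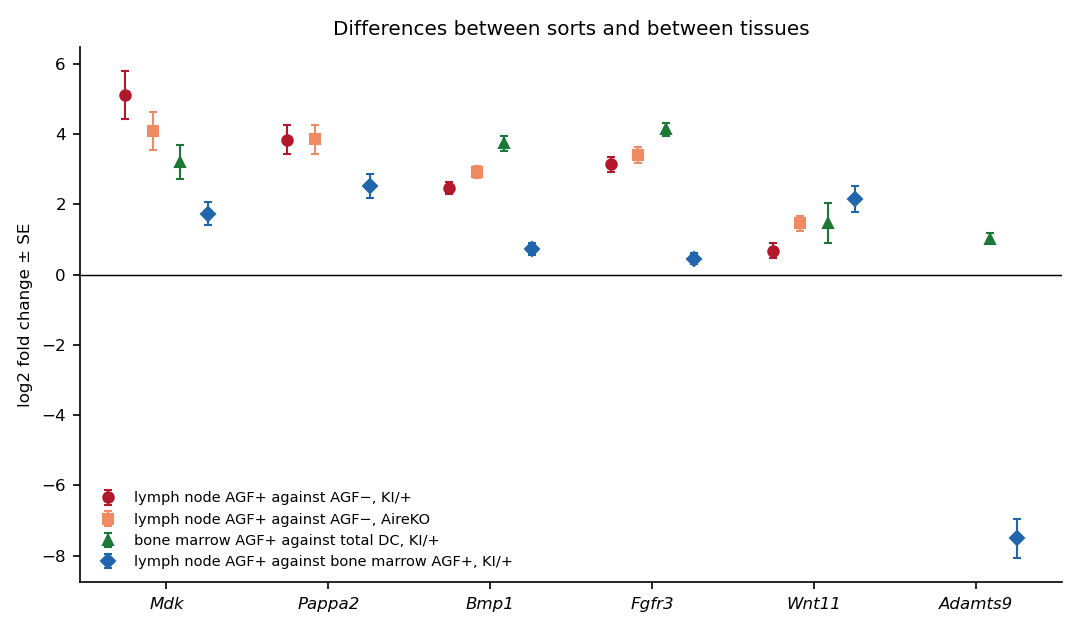
Log2 fold change ± SE of each gene between sorts in lymph node of either genotype, between marrow AGF+ cells and total DCs, and between AGF+ cells of the tissues. Adamts9 has no lymph node sort value because it did not pass the filter on low counts, and Pappa2 has none in marrow because total DCs held 3 counts. Sort differences are above 0 throughout, and the tissue difference of Adamts9, at -7.51, points opposite to the other 5.

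To set the genes against each other, levels were divided by exon length, the bases covered by exons of any annotated transcript. Such a total can exceed the length of any single transcript. Per kilobase (kb) of exon in lymph node AGF+ cells of KI/+ mice, Bmp1 led at 21.3 CPM per kb, followed by Wnt11 at 12.4, Mdk at 11.6, Fgfr3 at 8.01, Pappa2 at 5.07 and Adamts9 at 0.0265. In marrow AGF+ cells of KI/+ mice Bmp1 led again at 12.7 CPM per kb, ahead of Fgfr3 at 5.86, Adamts9 at 5.12, Mdk at 3.46, Wnt11 at 2.81 and Pappa2 at 0.879. The SD was 1.36 for Wnt11 and 3.5 for Mdk in the lymph node cells, and 1.09 and 0.637 in marrow. The order of Wnt11 and Mdk is therefore not settled in either tissue. Mdk has the shortest exon total of the 6, with 1324 bases, and Adamts9 the longest, with 15048. The order of the 6 genes by CPM differed from that by CPM per kb in both groups.

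Across the 21 libraries the log2(CPM + 1) values of Bmp1 and Fgfr3 correlated at r = 0.97, those of Pappa2 and Bmp1 at 0.95 and those of Mdk and Pappa2 at 0.93. Wnt11 and Adamts9 correlated at -0.70. These r values describe 7 groups of 3 libraries that share tissue, sort and depth, so that a correlation mostly restates the order of groups. Among 12250 expressed genes, the 3 most like each of the 6 were chosen by Pearson r. Mdk was closest to Slc7a10 (r = 0.98), an amino acid transporter, Lrp3 (0.96) and the T-box factor Tbx5 (0.96). Pappa2 was closest to Tcte1 (0.98), of the ciliary dynein regulatory complex, Morn1 and the angiomotin-like Amotl1 (0.96 each). For Bmp1 the closest were the RNA-binding Mex3a (0.99), the deubiquitinase Usp11 and Specc1 (0.98 each). Fgfr3 lay nearest to Rimkla, an enzyme that makes N-acetylaspartylglutamate, the semaphorin Sema3f and Vsig2 (0.98 each), though by rank correlation Sema3f and Vsig2 came to 0.83 and 0.78. Wnt11 was closest to the mitochondrial carrier Slc25a35 (0.98), the NF-kB subunit Relb and the G protein regulator Rgs12 (0.97 each). Near Adamts9 lay the neuropeptide gene Calcb at 1.00 and Snap47 at 0.99, which came to 0.81 and 0.82 by rank.

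Genes that mark other cell types were summed in each group, since a bulk sort can hold them, and since fewer cells of a type and less RNA per cell cannot be told apart in such data. In lymph node AGF+ cells of KI/+ mice 6 of 9 fibroblast markers were counted and summed to 2.13 to 3.63 CPM, with Col1a2, Lum and Pdpn at 0, against 3.55 to 7.67 CPM in AGF− cells. The 5 markers of marrow stroma and osteoblasts summed to 0.608 to 1.75 CPM there, with Bglap and Alpl at 0. Monocyte and macrophage markers, 5 of 5 counted, were lower in the AGF+ cells, at 349 to 470 CPM against 1786.6 to 2033.1 CPM. Other sums were lower there too: T and NK cell markers at 3.15 to 4.26 against 28.6 to 206 CPM, B lineage markers at 49.2 to 76.8 against 175 to 425 CPM, endothelial markers at 49.8 to 77.6 against 126 to 142 CPM, epithelial markers at 8.51 to 12.9 against 16.7 to 32.8 CPM and DC markers at 7241.4 to 8074 against 10607.3 to 11439.5 CPM. Progenitor markers overlapped, at 196 to 244 CPM in AGF+ against 187 to 212 CPM in AGF− cells. Erythroid and megakaryocyte markers, 3 of 5 counted, were higher in AGF+ cells, at 5.78 to 6.99 against 3.33 to 4.84 CPM. The part of these sums in the lymph node sort differences was not tested. In marrow AGF+ cells of KI/+ mice 6 of 9 fibroblast markers summed to 27.9 to 34.7 CPM, with Col3a1, Dcn and Lum at 0, against 2.25 to 3.20 CPM in total DCs with Col3a1, Pdgfra, Dcn, Lum and Ccl19 at 0. Endothelial markers, 6 of 7 counted, stood at 110 to 161 against 36.5 to 65.0 CPM and B lineage markers, 8 of 8 and 6 of 8 counted, at 104 to 141 against 19.1 to 24.5 CPM. Progenitor markers, 3 of 4 and 4 of 4 counted, stood at 301 to 356 against 116 to 259 CPM. Monocyte and macrophage markers, 5 of 5 counted, went the other way, with 41.0 to 133 against 451 to 801 CPM, and so did those of marrow stroma and osteoblasts, 5 of 5 and 3 of 5 counted, with 1.43 to 5.30 against 19.5 to 22.9 CPM. Epithelial markers overlapped, at 140 to 209 against 179 to 441 CPM, as did the sums for T and NK cells, erythroid cells and megakaryocytes, and DCs. The fibroblast, endothelial, B lineage and progenitor sums were thus higher in marrow AGF+ cells, as were Adamts9, Bmp1, Fgfr3, Mdk and Pappa2. The part of any of these sums in those differences was not tested.

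The remaining genes of each pathway were counted from lists that hold none of the 6. Up to 3 called genes are named per list and comparison, those with the smallest adjusted p. A gene named in only some comparisons may thus have been called in the others too. The counts per list are small, and 21 of the 48 counts moved by more than 1.5 times without some single library. Among 18 genes of midkine's receptors and partners, 12 passed the filter in lymph node. There 0 rose and 5 fell in AGF+ cells of KI/+ mice (median log2 fold change -0.22, against 0.01 over all genes), where 10.1% of all genes tested were called higher and 11% lower (edgeR quasi-likelihood test). At an unadjusted p under 0.05, 1 rose, and the other tools and settings called 0 to 1 higher. The endocytic midkine receptor Lrp1 fell from 414 ± 13.9 to 94.9 ± 27.6 CPM (-2.13 ± 0.28, adjusted p = 1.9e-04), and the syndecans Sdc1 (-3.36 ± 0.86) and Sdc3 (-1.08 ± 0.28) fell too. Sdc1 held only 6 counts in these AGF+ cells, at 0.304 ± 0.527 CPM. In AireKO nodes 1 rose and 5 fell (median -0.36), against 11.4% and 13.3% of all genes, with Lrp1 at -2.35 ± 0.28. In marrow 1 of 12 rose and 6 fell (median -0.46, 0.02 over all genes), against 22.8% and 21.6% of all genes. The 1 that rose was Lrp8, a lipoprotein receptor that also binds reelin, at 1503.1 ± 34.9 CPM in AGF+ cells and 209 ± 39.2 CPM in total DCs (2.86 ± 0.13, adjusted p = 2.7e-07). Notch2 (-0.84 ± 0.09) and the integrin Itgb1 (-0.99 ± 0.17) fell. Without the libraries numbered 2, the falls in this list numbered 2, 3 and 5 in the same order of comparisons. The falls in KI/+ nodes came to 3 without AGF+ KI/+ replicate 3 or AGF− KI/+ replicate 1, and those in AireKO nodes to 3 without replicate 2 of either AireKO sort. The rise in AireKO nodes was lost without AGF+ AireKO replicate 3, and marrow gave 2 rises without total DC replicate 1.

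In the IGF axis, where Pappa2 acts, 8 of 18 genes passed. In KI/+ nodes 2 rose and 3 fell (median -0.23), in AireKO nodes 1 rose and 2 fell (median -0.16), and in marrow 2 rose and 1 fell (median 0.40). As shares of the 8 genes, 25% rose and 37.5% fell in KI/+ nodes, against 10.1% and 11% of all genes, 12.5% and 25% in AireKO nodes (11.4% and 13.3%) and 25% and 12.5% in marrow (22.8% and 21.6%). The insulin receptor gene Insr rose in AGF+ cells of both genotypes, by 0.77 ± 0.15 (adjusted p = 0.0025) in KI/+ and 0.73 ± 0.15 (adjusted p = 0.0027) in AireKO nodes. Igf2r, which clears IGF2, fell from 36.3 ± 2.13 to 13.2 ± 2.35 CPM in KI/+ nodes (-1.47 ± 0.24) and changed by -2.47 ± 0.25 in AireKO nodes. The adaptor Irs1 was higher in AGF+ cells of KI/+ nodes, with 58 counts against 1 (ratio 47.0, counting interval 8.12 to 1889.9), and rose in marrow from 1.28 to 13 CPM (3.32 ± 0.39, adjusted p = 2.8e-05). Marrow AGF+ cells also had more of the adaptor Irs2 (0.72 ± 0.21) and less Igf1 itself (-0.97 ± 0.24), and Igf1 fell in AireKO nodes (-2.00 ± 0.57). Without the libraries numbered 2, the rises in this list numbered 2, 1 and 1 and the falls 2, 3 and 1. The marrow rises came to 4 without total DC replicate 1 and to 1 without total DC replicate 3. In AireKO nodes 2 rose without AGF− AireKO replicate 1 or 2 or AGF+ AireKO replicate 3, 1 fell without AGF+ AireKO replicate 1 or 3, and 4 fell without AGF+ KI/+ replicate 1 or 2 or AGF− KI/+ replicate 2.

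Bmp1's own family and substrates held 17 genes, of which 7 passed in lymph node and 6 in marrow. In AGF+ cells 3 rose and 1 fell in KI/+ nodes (median 0.62), 3 rose and 1 fell in AireKO nodes (median 0.63) and 4 rose and 1 fell in marrow (median 1.76). The shares were 42.9% and 14.3% in nodes of either genotype and 66.7% and 16.7% in marrow, against the same shares of all genes as in the IGF axis. Perlecan, Hspg2, a basement membrane proteoglycan, went from 24.6 ± 4.61 to 128 ± 24.2 CPM in KI/+ nodes (2.38 ± 0.25, adjusted p = 3.0e-05) and rose by 2.33 ± 0.25 in AireKO nodes and by 3.31 ± 0.50 in marrow. The procollagen Col5a1 rose in all 3 comparisons, by 3.95 ± 0.61, 3.55 ± 0.52 and 3.26 ± 0.66, to between 4.10 and 8.08 CPM. The lower groups held 7, 11 and 6 counts of Col5a1. Gdf11, whose prodomain tolloids cut, rose in marrow (1.38 ± 0.25). Fibronectin, Fn1, fell in both genotypes, from 25.3 to 6.34 CPM in KI/+ nodes (-2.02 ± 0.30) and from 36.2 to 0.775 CPM in AireKO nodes (-5.53 ± 0.51). The rises numbered 3, 2 and 4 without the libraries numbered 2, and the falls 1, 1 and 0. The fall in marrow was also lost without AGF+ KI/+ replicate 2 or 3 or total DC replicate 1.

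Of the 33 genes of BMP and TGF-beta signalling, 24 passed in lymph node and 25 in marrow. In KI/+ nodes 3 rose and 4 fell (median -0.17), in AireKO nodes 6 rose and 7 fell (median -0.11), and in marrow 10 rose and 6 fell (median 0.15). In KI/+ nodes the share that rose, 12.5%, was near the 10.1% of all genes, and 16.7% fell against 11%. In AireKO nodes 25% rose and 29.2% fell (all genes 11.4% and 13.3%). In marrow 40% rose against 22.8%, and the 24% that fell were near the 21.6% of all genes. TGF-beta 1 and its receptor were lower in AGF+ cells of both genotypes, with Tgfb1 at -0.94 ± 0.15 and Tgfbr2 at -0.84 ± 0.14 in KI/+ nodes (adjusted p = 4.9e-04 and 7.6e-04) and at -1.18 ± 0.15 and -1.17 ± 0.14 in AireKO nodes. Smad3, a mediator of TGF-beta, fell in AireKO nodes (-1.42 ± 0.23), whereas the BMP mediator Smad1 rose in KI/+ nodes from 71.4 to 111 CPM (0.63 ± 0.13) and in marrow from 58.5 to 151 CPM (1.38 ± 0.15). Marrow AGF+ cells had more of the ligand Bmp2, at 12.3 ± 2.47 against 0.809 ± 0.403 CPM (3.89 ± 0.41, adjusted p = 9.3e-06), and of the inhibitory Smad7 (1.73 ± 0.18). Without the libraries numbered 2 the rises in this list were 2, 2 and 8 and the falls 3, 5 and 2. The rises in AireKO nodes came to 3 without AGF+ AireKO replicate 1 or AGF− AireKO replicate 3. Falls came to 2 in KI/+ nodes without AGF+ KI/+ replicate 2 or AGF− KI/+ replicate 3, and to 3 in marrow without AGF+ KI/+ replicate 3.

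The FGF list counted 31 genes beside Fgfr3, of which 16 passed in lymph node and 17 in marrow. In KI/+ nodes 4 rose and 5 fell (median 0.06), in AireKO nodes 3 rose and 2 fell (median -0.01), and in marrow 4 rose and 6 fell (median -0.07). In KI/+ nodes 25% rose and 31.2% fell, against 10.1% and 11% of all genes. The 12.5% that fell in AireKO nodes and the 23.5% that rose in marrow were near the background of 13.3% and 22.8%, while 18.8% rose in AireKO nodes (11.4%) and 35.3% fell in marrow (21.6%). Fgf1, a ligand that all FGF receptors bind, rose from 3.98 ± 1.21 to 23.8 ± 4.88 CPM in KI/+ nodes (2.56 ± 0.30, adjusted p = 4.6e-05) and by 2.32 ± 0.29 in AireKO nodes. Etv5 and Dusp6, a transcription factor and a phosphatase that are usual targets of receptor signalling through ERK, fell. Dusp6 went from 42.8 ± 1.19 to 8.40 ± 1.80 CPM in KI/+ nodes (-2.35 ± 0.23) and changed by -2.95 ± 0.24 in AireKO nodes. Etv5 changed by -1.86 ± 0.22 and -2.31 ± 0.23 in lymph node and by -3.24 ± 0.25 in marrow, where it stood at 2.22 CPM against 21.3 CPM. The membrane partners of FGF receptors split in marrow: Flrt1 rose (2.84 ± 0.39) and Flrt3 fell (-2.37 ± 0.33). Falls in this list numbered 2, 2 and 4 without the libraries numbered 2, and rises 3, 3 and 4. The falls in KI/+ nodes came to 2 or 3 without any 1 of 6 libraries, namely AGF+ KI/+ replicates 1 to 3, AGF− KI/+ replicates 2 and 3 and AGF+ AireKO replicate 2. Those in AireKO nodes came to 4 without AGF− AireKO replicate 1, and those in marrow to 3 without AGF+ KI/+ replicate 2.

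The WNT list of 58 genes, of which Lrp6 is also in the midkine list, had 29 that passed in lymph node and 27 in marrow. More of its genes rose than fell in each comparison, 9 against 3 in KI/+ nodes (median 0.42), 8 against 3 in AireKO nodes (median 0.27) and 15 against 3 in marrow (median 1.22), where the medians over all genes were 0.01, 0.01 and 0.02. The shares that rose were 31%, 27.6% and 55.6%, against 10.1%, 11.4% and 22.8% of all genes, and those that fell 10.3%, 10.3% and 11.1%, against 11%, 13.3% and 21.6%. Another ligand, Wnt10b, rose with Wnt11, from 1.61 ± 0.639 to 17.7 ± 3.47 CPM in KI/+ nodes (3.44 ± 0.47, adjusted p = 8.8e-05) and by 3.09 ± 0.46 in AireKO nodes. Among the genes of cell polarity, Vangl2 rose by 1.21 ± 0.16 and 1.06 ± 0.16 in lymph node, the receptor Ror1 by 1.87 ± 0.21 in AireKO nodes, and Vangl1 (3.47 ± 0.26) and the co-receptor Ptk7 (4.52 ± 0.47) in marrow. Ptk7 held 6 counts in total DCs. Axin2, a feedback inhibitor and usual target of the beta-catenin branch, went from 7.03 ± 1.41 to 23.0 ± 1.68 CPM in KI/+ nodes (1.70 ± 0.26) and from 0.277 ± 0.328 to 16.8 ± 3.36 CPM in marrow (5.83 ± 0.82, adjusted p = 9.3e-06), the last from 4 counts in total DCs. Without the libraries numbered 2, 6, 8 and 15 genes rose and 2, 3 and 3 fell. Leaving out lymph node AGF+ KI/+ replicate 1 also gave 6 rises in KI/+ nodes, and 1 fall. Without AGF− KI/+ replicate 1 or 3, 1 fell there as well.

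Around Adamts9, 12 of 31 other ADAMTS proteins, proteoglycan substrates and tissue inhibitors passed. In AGF+ cells 4 rose and 3 fell in nodes of either genotype (medians -0.07 in KI/+ and -0.12 in AireKO mice), and 5 rose and 1 fell in marrow (median 0.36). These are 33.3% and 25% of the genes tested in nodes of either genotype and 41.7% and 8.33% in marrow. Among all genes tested, 10.1% rose and 11% fell in KI/+ nodes, 11.4% and 13.3% in AireKO nodes and 22.8% and 21.6% in marrow. Timp3, an inhibitor that binds the matrix and acts on ADAMTS proteinases, rose in all 3 comparisons, by 1.78 ± 0.35, 2.42 ± 0.36 and 1.41 ± 0.14, and reached 142 ± 5.93 CPM in marrow AGF+ cells against 53.7 ± 10.9 CPM. Another inhibitor, Timp4, was counted 83 times in marrow AGF+ cells and not in total DCs, at least 25.9-fold higher against 3 counts over that group. The aggrecanase Adamts4 rose in nodes of KI/+ (2.31 ± 0.42) and AireKO mice (2.49 ± 0.42), and Adamts7 in the latter (1.87 ± 0.36). The procollagen proteinase Adamts14 fell in KI/+ nodes (-3.44 ± 0.88). Versican, Vcan, a substrate of ADAMTS9, fell in marrow from 96.3 ± 20.6 to 17.4 ± 6.59 CPM (-2.46 ± 0.35, adjusted p = 2.7e-04). The rises came to 2, 4 and 4 and the falls to 2, 2 and 1 without the libraries numbered 2. In KI/+ nodes 1 fell without AGF+ KI/+ replicate 1 or 2 or AGF− KI/+ replicate 3, and in marrow 2 fell without AGF+ KI/+ replicate 1.

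Of 34 other metalloproteinases 17 passed, and 2 rose and 6 fell in KI/+ nodes (median -0.17), 2 rose and 6 fell in AireKO nodes (median -0.39), and 3 rose and 8 fell in marrow (median -0.41). The share that rose, 11.8% in nodes of either genotype and 17.6% in marrow, stood beside 10.1%, 11.4% and 22.8% of all genes, and the share that fell, 35.3% in nodes and 47.1% in marrow, beside 11%, 13.3% and 21.6%. Adam19, a membrane sheddase, fell from 133 ± 8.79 to 37.5 ± 7.97 CPM in KI/+ nodes (-1.83 ± 0.25, adjusted p = 2.2e-04) and changed by -1.98 ± 0.26 in AireKO nodes. Mmp12, the macrophage elastase, fell in KI/+ nodes (-4.18 ± 0.71), where monocyte and macrophage markers were lower as well. Mmp15, a membrane-bound proteinase, rose in nodes of both genotypes (3.09 ± 0.54 and 3.16 ± 0.61) and was counted 40 times in marrow AGF+ cells against 1 (ratio 37.5, counting interval 6.36 to 1518.4). Mmp23 rose in AireKO nodes (1.75 ± 0.22), and Mmp11 (3.09 ± 0.39) and Adam12 (3.87 ± 0.65) rose in marrow. Falls came to 3, 3 and 4 and rises to 2, 3 and 3 without the libraries numbered 2. Leaving out AGF− KI/+ replicate 1 gave 3 falls in KI/+ nodes, leaving out AGF+ AireKO replicate 3 gave 3 in AireKO nodes, and 5 rose in marrow without total DC replicate 1.

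**Figure D3:**
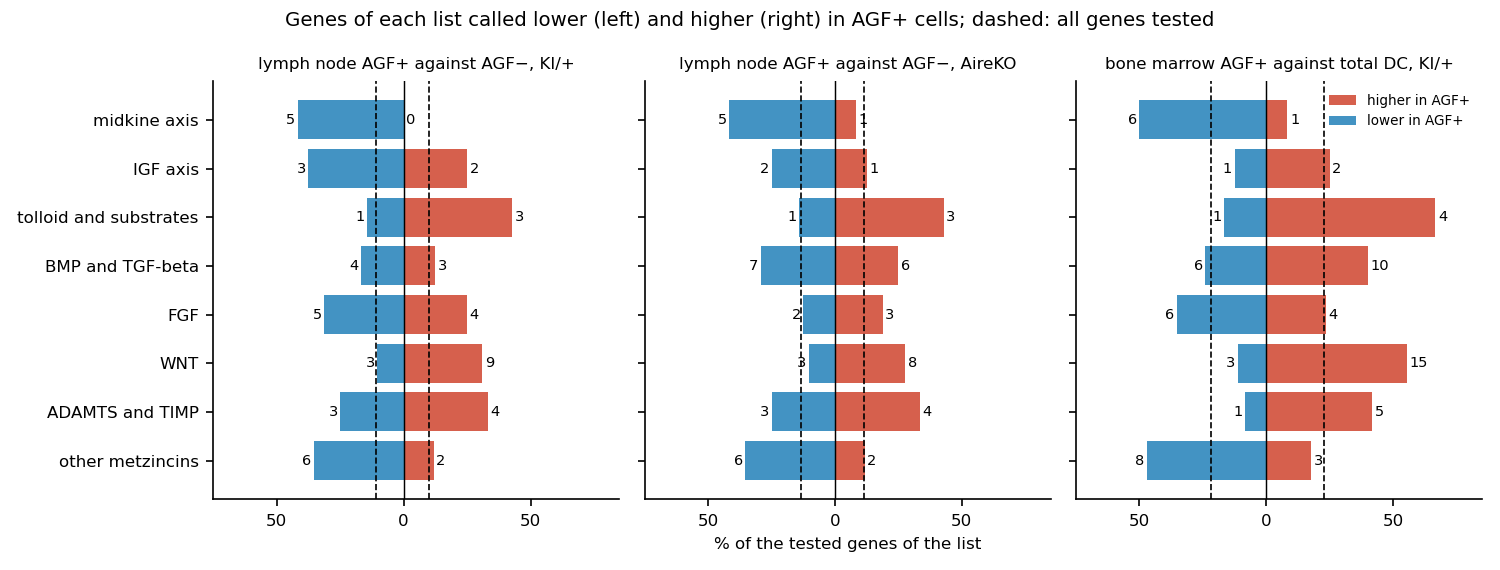
Share of the tested genes of each list called higher (right) or lower (left) in AGF+ cells, with the number of genes beside each bar, for the 3 sort comparisons. Dashed lines give the share among all genes tested, 10.1% and 11% in KI/+ nodes, 11.4% and 13.3% in AireKO nodes and 22.8% and 21.6% in marrow, and the WNT bars extend farther to the right than to the left in each panel.

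Whether these genes depend on Aire was addressed by comparing AireKO with KI/+ cells of the same sort. In lymph node AGF+ cells 0 of the 5 genes that passed the filter were called, where 0.0126% of all genes were. Log2 differences ran from -0.38 ± 0.32 for Mdk (95% interval -1.07 to 0.31) and -0.32 ± 0.31 for Pappa2 (-0.98 to 0.33) to 0.04 ± 0.16 for Bmp1 (-0.30 to 0.38). Fgfr3 stood at -0.08 ± 0.18 and Wnt11 at -0.19 ± 0.21. Adjusted p values were 0.967 to 0.988 (edgeR quasi-likelihood test), and 0 of the 5 had an unadjusted p under 0.05. Neither DESeq2 nor limma voom called any of them. For each gene the libraries of the genotypes overlapped. In marrow AGF+ cells 0 of 6 genes were called, against 0.0129% of all genes, with an adjusted p of 1.0 for each, an unadjusted p under 0.05 for 0 of 6 and no call by DESeq2 or limma voom. The differences there ran from -0.15 ± 0.28 for Mdk to 0.48 ± 0.30 for Pappa2 (-0.17 to 1.13), with Adamts9 at 0.28 ± 0.16 (-0.06 to 0.63).

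In AGF− cells of the lymph node the Wnt11 libraries of the genotypes did not overlap. The share of all genes with libraries apart in this way was not counted. The AireKO libraries, at 11, 24.0 and 14.2 CPM, all lay below the KI/+ libraries, at 37.3, 31.1 and 27.7 CPM. The log2 difference was -0.97 ± 0.23 (95% interval -1.46 to -0.48) with an unadjusted p of 7.8e-04, and it failed adjustment over all genes (adjusted p = 0.798, edgeR quasi-likelihood test). Its adjusted p ranged from 3.1e-04 to 0.999 over 21 alternatives, of which 2 called it. These were the fit with no filter on low counts (adjusted p = 3.1e-04) and the fit without AGF− AireKO replicate 2, the library at 24.0 CPM (-1.37, adjusted p = 0.013). Without all libraries numbered 2 it was -1.39 with adjusted p = 0.0699, and with the replicate block -0.98 with adjusted p = 0.434. Summed markers of monocytes and macrophages were 1810.2 to 2645.6 CPM in these AireKO and 1786.6 to 2033.1 CPM in KI/+ libraries, B lineage markers 254 to 596 and 175 to 425 CPM, and T and NK cell markers 49.1 to 288 and 28.6 to 206 CPM. Their part in the Wnt11 difference was not tested.

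Bmp1 stood at -0.40 ± 0.18 in the same AGF− cells (unadjusted p = 0.0377, adjusted p = 0.824), with overlapping libraries, and Mdk, Pappa2 and Fgfr3 at 0.64 ± 0.81, -0.33 ± 0.50 and -0.34 ± 0.26. In all, 0 of 5 genes were called there by edgeR and 2, Wnt11 and Bmp1, had an unadjusted p under 0.05. Among all genes 0.0063% were called and 5.97% had an unadjusted p under 0.05. The interval of Mdk, -1.09 to 2.37, is wide because AGF− libraries held 1 to 6 counts of it. Whether the sort difference itself changed with genotype was tested as an interaction in the lymph node fit. It called 0 of the 5 genes and 0.0063% of all genes, with adjusted p of 1.0 for each of the 5. The interaction ran from -1.02 ± 0.87 for Mdk to 0.78 ± 0.31 for Wnt11 (95% interval 0.12 to 1.45, unadjusted p = 0.0241). The edgeR fit called 0 genes of the 8 lists between genotypes in each of the 3 sorts. At an unadjusted p under 0.05 there were 7 of 124 in lymph node AGF+ cells (5.65%, against 3.67% of all genes), 13 of 124 in AGF− cells (10.5% against 5.97%) and 1 gene in marrow AGF+ cells (0.813% against 1.67%). Among the other fits of lymph node AGF+ cells, Fn1 alone was called by DESeq2 (-3.05), with the replicate block (-3.00, adjusted p = 0.0198), with library size alone, with only the groups compared, and without AGF+ KI/+ replicate 2, AGF− KI/+ replicate 2 or AGF− AireKO replicate 1. With no filter on low counts 5, 8 and 1 list genes were called in the 3 sorts. Without AGF− AireKO replicate 2, 3 were called in AGF− cells, namely Adam8, Adam23 and Mmp23. The other alternatives, limma voom included, called 0. Fn1 and these 3 were singled out here once their values had been seen.

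**Figure D4:**
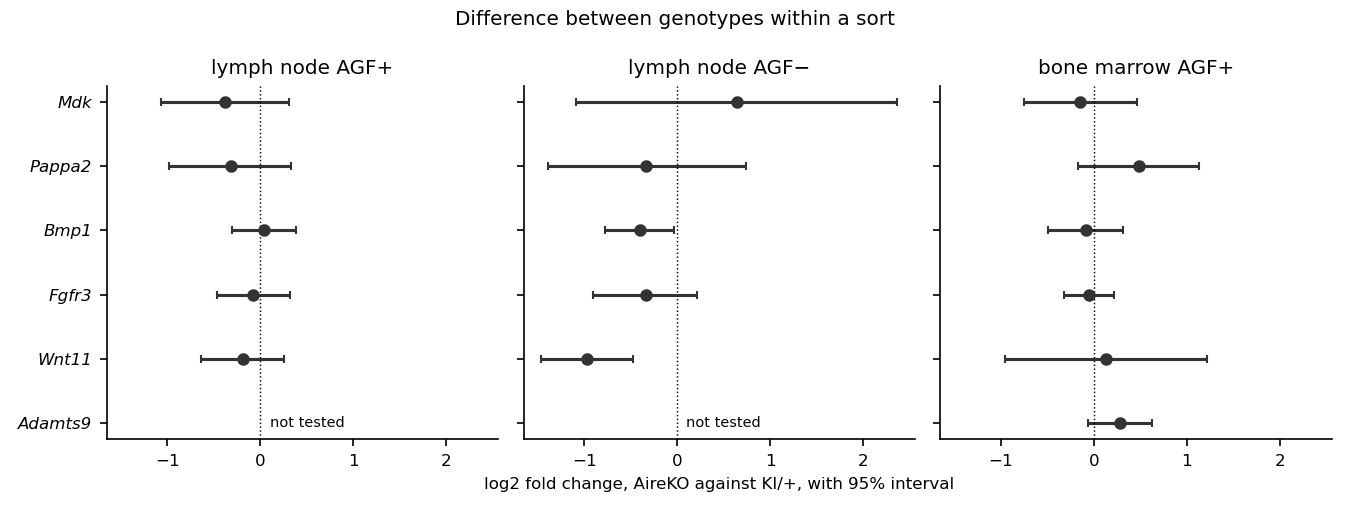
Log2 fold change of AireKO against KI/+ cells with 95% interval for each gene in lymph node AGF+, lymph node AGF− and marrow AGF+ cells. All intervals include 0 except those of Wnt11 (-1.46 to -0.48) and Bmp1 (-0.78 to -0.03) in lymph node AGF− cells, and neither passed after adjustment over all genes.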

How the data were processed

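Per the submitters' processing notes reads were handled with STAR 2.7.3a, HTSeq 0.11.2, fastp 0.20.0, Picard 2.21.1 and SAMtools 1.9 on GRCm38, with edgeR 3.38.1 named as well. Per the labels' protocols, libraries were made from 1 ng of RNA with a low-input kit and read in pairs. The authors deposited raw read counts per Ensembl gene for 21 libraries, from which all values here were computed. Their normalized table was not used. The sources used here do not state the annotation release, the strand setting or how reads shared between genes were handled. Symbols, exon lengths and overlaps came from GENCODE M21. The 327 genes without a symbol, with 0.0139% of counts, were kept in the fits.

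Tests used the quasi-likelihood fit of edgeR 4.0.16 (R 4.3.3) with TMM scaling, its filter on low expression and a threshold of 0.05 on the p adjusted by Benjamini-Hochberg, with 1 fit of the 12 lymph node libraries, 1 of the 9 marrow libraries and 1 of all 21 for the tissue comparison. The lymph node fit was also run on simulated counts with the same spread for every gene and no replicate effect. That setting is simpler than these data, and its outcome is not used here. Standard errors are Wald errors of the fits to the deposited counts. Counting intervals are exact binomial at 95%. The 6 genes and the lists were chosen with earlier results of these data known. Named genes are the 6, Aire, up to 3 called genes per list and sort comparison with the smallest adjusted p, and the 3 genes most like each of the 6, by Pearson r among genes with an average log2 CPM of at least 1, without predicted genes, pseudogenes and receptor segments. For Adamts9, 1 of these 3 is not reported here.

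Same-numbered libraries were checked for pairing by the correlation of their deviations from group means. It was above 0.1 for every number in the pairs compared (0.153 to 0.43), except lymph node AGF+ cells of KI/+ and AireKO mice (0.09, 0.229 and 0.197). Among groups not compared directly, lymph node AGF+ KI/+ with AGF− AireKO cells gave 0.157, 0.007 and 0.113. Total DCs with marrow AGF+ AireKO cells gave 0.088, 0.251 and -0.032. Lymph node AGF+ AireKO with AGF− KI/+ cells gave 0.168, 0.206 and 0.18. The number marks no stated batch. Alternatives were DESeq2 1.42.0 (size factors, Wald test), library size alone, other filters, limma 3.58.1 voom with sample weights, the replicate block, only the groups compared, and libraries left out. Tables came from pandas 2.3.3 and scipy 1.17.1 (Python 3.11.15) and plots from matplotlib 3.10.9.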

Additional observations from a re-analysis of the deposited data

How the results depend on the processing

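The counts of called genes kept within 1.5 times of 3349 (KI/+ nodes), 3926 (AireKO nodes), 6881 (marrow) and 9365 (tissue) under the alternatives run, except without the libraries numbered 2, where KI/+ nodes gave 1942 and marrow 3858. Fewer samples enter that fit. Leaving out single libraries gave 2271 to 3924, 2874 to 4126, 5672 to 7550 and 8060 to 9809. The genotype counts were 2 (lymph node AGF+), 1 (AGF−), 2 (marrow AGF+) and 1 (interaction). With no filter on low counts they were 97, 270, 26 and 14, and with the DESeq2 Wald test 4, 3, 2 and 2. The replicate block gave 4, 2, 2 and 2, and 4338, 4969, 7633 and 9859 in the other comparisons, and changed no call of the 6 genes. Only the groups compared gave 0 in AGF−. Without the libraries numbered 2 marrow gave 1 and the interaction 0. Leaving out single libraries gave 2 to 7, 1 to 89 (without AGF− AireKO replicate 2), 2 to 2 and 1 to 2. The cause of these shifts was not tested. Among the 6 genes, 5 genotype differences near 0 changed sign in some fit that left libraries out. Without single libraries they ran from -0.04 to 0.11 for Bmp1 and from -0.23 to 0.10 for Fgfr3 in lymph node AGF+ cells, from -1.08 to 0.11 for Pappa2 in AGF− cells, and in marrow from -0.26 to 0.01 for Mdk and from -0.13 to 0.44 for Wnt11. Mdk in marrow was 0.02 without the libraries numbered 2. Depth limits Mdk and Pappa2 in the low groups and Adamts9 in lymph node.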
